A study of Mus musculus with 70 samples.

Results

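The comparison described here sets 4 livers of female OpnKI Mye mice kept on a NASH diet against 4 livers of female OpnKI Mye mice kept on a control diet, 8 of the 70 libraries of the series. The groups were taken from the labels of the female liver count table, which has 24982 gene rows. OpnKI Mye, called KI below, is, going by the label, an osteopontin (Opn, gene Spp1) knock-in in myeloid cells. The mice without it, called WT below, are labelled Lyz2.Cre+/+, and both genotypes were sampled after 24 weeks on either diet. The 4 groups of female liver, KI NASH, KI control, WT NASH and WT control, have 4 libraries each, as do the male KI NASH and KI control livers used for 1 comparison of the sexes. Lyz2.Cre drives recombination in cells that use the Lyz2 promoter, that is in macrophages, monocytes and neutrophils, while the libraries come from the lysate of whole liver, in which hepatocytes give most RNA. The composition of the diets, the ages of the mice and the number of founder lines are not known here, and the labels do not say that each library is a separate animal. The p-values below measure only the spread between these libraries.

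NASH, nonalcoholic steatohepatitis, combines fat stored in hepatocytes with inflammation and, over time, scarring. Osteopontin is a secreted phosphoprotein that binds integrins and CD44, and in fatty liver it is made by bile duct cells and by lipid-associated macrophages. Hepatocytes switch between fed and fasted programmes: insulin and the SREBP factors drive sterol and fatty acid synthesis, and glucocorticoids, glucagon and PPARA drive gluconeogenesis and fatty acid oxidation. Across the liver lobule they are also zoned, with Wnt target genes and glutamine synthesis near the central vein and urea synthesis near the portal vein.

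In KI NASH livers 18 of 24 cholesterol synthesis genes, 13 of 21 fasting and glucocorticoid genes and 11 of 21 fatty acid synthesis genes passed the test as lower than in KI control livers, where 4.63% of all genes tested did. None of these lists had a gene that passed as higher. Of 21 NF-kB, cytokine and chemokine genes 6 were higher and 1 was lower, and of 14 pericentral genes 2 were higher and 1 was lower. Among 17 lipid-associated macrophage genes 1 was higher and 2 were lower, among 14 Kupffer cell genes 1 was higher and 1 lower, and among 12 recruited monocyte genes 1 was higher. Of 31 matrix genes tested, 1 was higher (4.21% of all genes) and none was lower. Spp1 itself did not pass the test.

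Total counts were 17917827 to 20362747 per library in KI NASH, 19987338 to 21871494 in KI control, 18573961 to 23669846 in WT NASH and 20917438 to 21849341 in WT control, and in males 19161896 to 29966174 in KI NASH and 18743646 to 20749401 in KI control. Xist was high and the Y-linked Ddx3y had at most 1 count in the 8 KI libraries. No pair of libraries within a group agreed within counting noise. Markers of the labelled tissue were abundant: the 18 hepatocyte genes summed to 124800 to 157800 CPM (counts scaled to a common library size with edgeR's TMM factors) in KI NASH and 158200 to 210500 in KI control.

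Some libraries stood apart in ways that bear on the results. Lyz2, the gene whose promoter drives the Cre, had 1.23 and 1.17 CPM in KI NASH livers 1 and 2 and 62.9 and 38.1 CPM in KI NASH livers 3 and 4, against 34.1, 31.6, 45.0 and 22.7 CPM in KI control livers. In WT livers it had 1.29 to 2.19 CPM on NASH and 1.09 to 2.48 CPM on control diet. Thus 2 of the 4 libraries labelled KI NASH had Lyz2 at the level of these WT livers, which are labelled Lyz2.Cre+/+. Male KI livers also had a wide range, 1.12 to 55.3 CPM of Lyz2 on NASH and 0.508 to 28.1 CPM on control diet. A mislabelled genotype and another allele cannot be told apart from these values. On the first principal component of the 16 female liver libraries, 27.1% of the variance, KI NASH lay at 15.56 to 21.63 and WT control at 3.36 to 23.37, while KI control lay at −42.83 to −27.73. WT NASH was split, with livers 1 and 2 at 31.62 and 28.43 and livers 3 and 4 at −29.25 and −18.99, next to KI control. The plot of principal components shows the KI control libraries and WT NASH livers 3 and 4 together on the negative side. Within the 8 KI libraries, KI control liver 1 stood apart on the second component, and below it is the lowest control for many lipid synthesis genes. What sets these libraries apart was not tested.

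**Figure D1:**
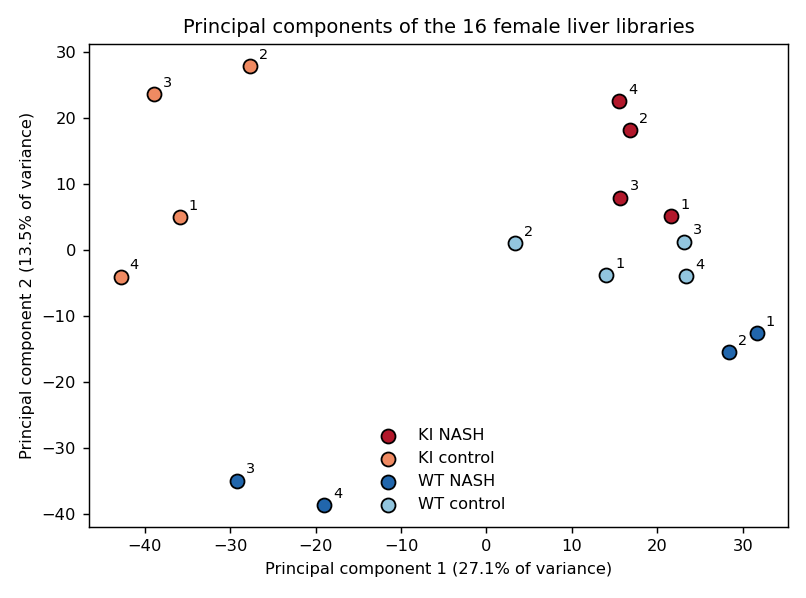
Each point is 1 of the 16 female liver libraries, placed by its first (27.1% of variance) and second (13.5%) principal component of log2 CPM. The KI NASH points lie among the WT control points on the horizontal axis, the KI control points lie at −42.83 to −27.73, and the WT NASH points are split between both sides.

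Of 13315 genes tested, 1176 (8.83%) passed an adjusted p of 0.05 in KI NASH against KI control with edgeR's quasi-likelihood test and Benjamini-Hochberg adjustment, 560 of them higher (4.21%) and 616 lower (4.63%). All adjusted p-values below come from this test, and ± on a log2 fold change is its standard error, computed as the fold change over the square root of the F statistic. Of the 1176 genes, 434 passed with an absolute log2 fold change above 1. The median absolute log2 fold change of the 1176 was 0.831, and the median log2 fold change over all genes tested was −0.00264. In 1023 of the 1176 genes the 4 NASH and 4 control values did not overlap. Over all genes tested the share with no overlap was 17.8%, 9.4% with NASH above and 8.4% with NASH below control. Without KI NASH livers 1 and 2, 36 genes passed, 34 of them among the 1176, while the median absolute log2 fold change of the 1176 was 0.85 instead of 0.83. The count also fell to 466 without KI control liver 4, 493 without KI NASH liver 2, 500 without KI NASH liver 3, 568 without KI control liver 3 and 634 without KI NASH liver 4. Scaling by library totals in place of TMM, which shifts the median of all genes by 0.21, gave 2145 higher and 371 lower genes, while the cholesterol, fasting and fatty acid synthesis lists below still had 14, 14 and 11 genes lower and none higher. In the same fit 7 genes (0.0526%) passed for NASH against control diet in WT livers, 5 higher (0.0376%) and 2 lower (0.015%).

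The WT control livers give a second view of where the KI groups lay. For 952 of the 1176 genes (81%) the KI NASH mean was nearer than the KI control mean to the WT control mean, against 60.9% of all genes tested. This is a description, because the genes were chosen on the same KI libraries. The share was 82.3% of the higher and 79.7% of the lower genes.

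**Figure D2:**
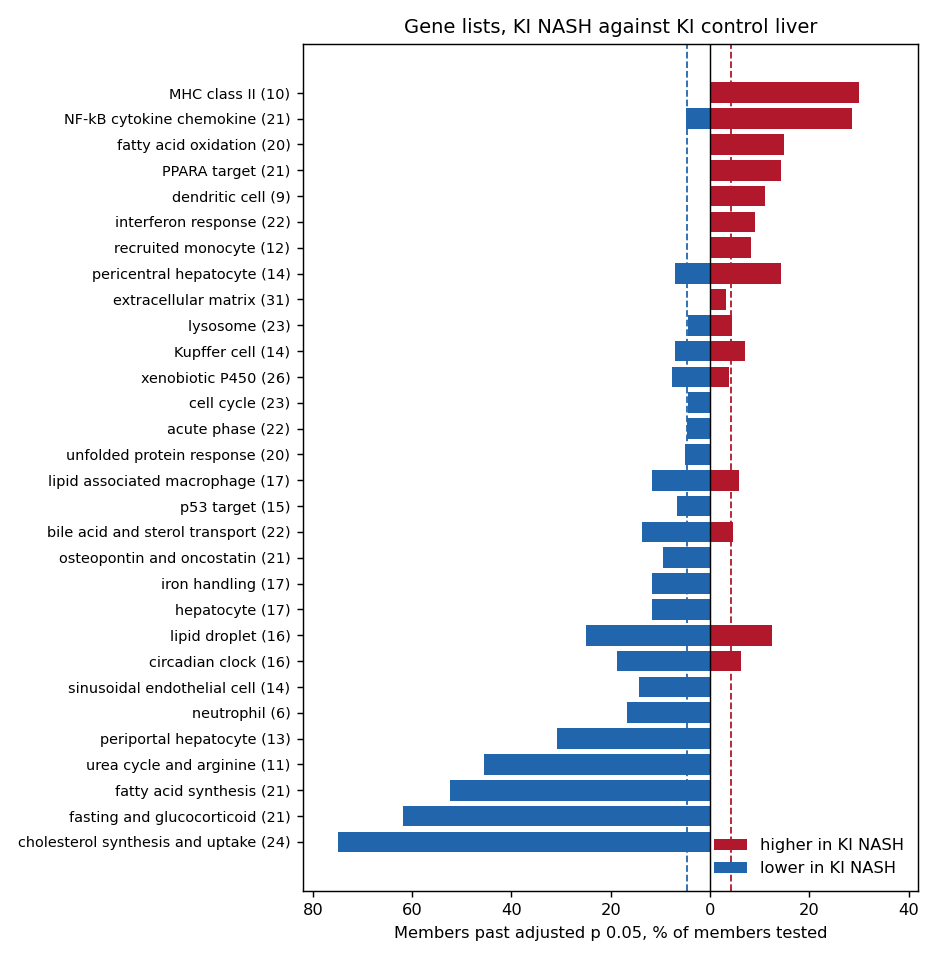
Share of the tested members of each gene list that passed an adjusted p of 0.05 as higher (right of 0) or lower (left of 0) in KI NASH than in KI control liver. Cholesterol synthesis, fasting and glucocorticoid, and fatty acid synthesis genes reach furthest to the lower side, with 18 of 24, 13 of 21 and 11 of 21 members. Dashed lines mark the shares among all genes tested, 4.21% and 4.63%, the number tested stands beside each name, and lists with no gene past the threshold are left out.

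Genes that hepatocytes raise in fasting or under glucocorticoids were lower in KI NASH livers. Of the 21 tested, 13 fell and none rose, with a list median of −1.40 on the log2 scale. In all 13 the groups did not overlap, which also held for 1023 of all 1176 genes that passed. Over all genes tested, 8.4% had every NASH value below every control value. Lpin1, a phosphatidate phosphatase and transcriptional coactivator (chromosome 12, 16535669 to 16610966, minus strand, GRCm38), had 119, 84.2, 96.0 and 59.0 CPM in KI NASH livers and 1100, 1488, 1632 and 1451 CPM in KI control livers. Every NASH value was below every control value, and the log2 fold change was −3.99 ± 0.67 (adjusted p = 0.00563). Tat, tyrosine aminotransferase and a classical glucocorticoid-induced liver gene (chromosome 8, 109990437 to 109999803, plus strand), had 923, 612, 1175 and 983 CPM in KI NASH livers and 5211, 6016, 5804 and 6097 CPM in KI control livers, again with no overlap (−2.65 ± 0.44, adjusted p = 0.00561). For both genes WT control livers lay between the KI groups or near KI NASH, at 181 to 730.2 CPM for Lpin1 and 959.7 to 2853 CPM for Tat.

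Ppargc1a, the coactivator of gluconeogenesis and mitochondrial genes, averaged 23.8 ± 7.35 CPM in KI NASH and 89.1 ± 47.3 CPM in KI control livers (SD, n = 4 each), a log2 fold change of −1.91 ± 0.37 (adjusted p = 0.00899). The growth arrest gene Gadd45g was at 6.48, 12.3, 8.22 and 30.0 CPM in KI NASH livers and at 183 to 257 CPM in KI control livers (−4.00 ± 1.20, adjusted p = 0.0488), and it did not pass when any 1 of the 8 KI libraries was left out. The clock gene Per1, which glucocorticoids induce, fell by 1.38 on the log2 scale. Fkbp5, Cebpd, Sgk1, Tsc22d3 and Foxo1 also fell, as did the metal-binding metallothioneins Mt1 and Mt2, whose close sequence makes the split of reads between them uncertain. The gluconeogenic Pck1 and G6pc did not pass. The insulin-repressed Igfbp1 had 48.8 to 242 CPM in KI NASH and 757 to 2479 CPM in KI control livers, with a log2 fold change of −3.42 ± 1.25 that missed the threshold (adjusted p = 0.0977). Without KI NASH livers 1 and 2 none of the 21 passed, with a median of −1.59, and the number that fell was 8 without KI control liver 4, 7 without KI NASH liver 4 and 6 without KI NASH liver 1, 2 or 3.

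Cholesterol synthesis was the list with the most genes lower. Of 24 genes tested, 18 fell and none rose, with a median of −1.45 on the log2 scale. Squalene epoxidase, Sqle, had 5.51, 1.9, 5.2 and 8.66 CPM in KI NASH livers and 2.12, 149.6, 83.9 and 208 CPM in KI control livers. Control liver 1 lay within the NASH range and the other 3 lay far above it (−4.39 ± 0.82, adjusted p = 0.00736).

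This pattern held across the list. KI control liver 1 was the lowest control in 23 of the 24 genes tested and in all 18 that passed, and in 16 of the 18 it was below the highest KI NASH liver. The other 3 control livers were above every KI NASH liver in all 18 genes. The sterol isomerase Ebp separated the groups fully. The mevalonate pathway kinase Pmvk averaged 24.3 ± 5.84 CPM in KI NASH and 130.5 ± 73.8 CPM in KI control livers (SD, n = 4 each; −2.43 ± 0.42, adjusted p = 0.00613), and the lanosterol demethylase Cyp51 had 30.2 ± 11.6 and 160.4 ± 109 CPM in the same groups (SD, n = 4 each; −2.41 ± 0.47, adjusted p = 0.00906). Without KI control liver 1, 23 of the 24 passed, against 10 without KI control liver 4 and 11 without KI NASH liver 2 or 3. None passed without KI NASH livers 1 and 2, when the median was −1.52.

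The promoters of 3 of the genes are printed because genes of this pathway moved together. SREBP2, the main activator of sterol synthesis genes, binds sterol regulatory elements and acts with NF-Y, which binds CCAAT boxes. The 3 genes were chosen after their values were seen. Each line holds the 250 bases before the gene start, 5′ to 3′ on the plus strand, from RefSeq on GRCm38.p6: Hmgcs1 (chr13:119690101-119690350), Idi1 (chr13:8885356-8885605) and Lss (chr10:76531355-76531604). Capitals mark CCAAT boxes, which in these 3 promoters all read ATTGG because they lie on the minus strand, and a match to the sterol regulatory element TCACNCCAC.
Hmgcs1: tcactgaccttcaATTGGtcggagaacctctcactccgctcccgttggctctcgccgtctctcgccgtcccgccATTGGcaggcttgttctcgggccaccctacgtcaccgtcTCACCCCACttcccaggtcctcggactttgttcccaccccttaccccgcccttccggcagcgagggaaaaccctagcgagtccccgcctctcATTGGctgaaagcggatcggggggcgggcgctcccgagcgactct
Idi1: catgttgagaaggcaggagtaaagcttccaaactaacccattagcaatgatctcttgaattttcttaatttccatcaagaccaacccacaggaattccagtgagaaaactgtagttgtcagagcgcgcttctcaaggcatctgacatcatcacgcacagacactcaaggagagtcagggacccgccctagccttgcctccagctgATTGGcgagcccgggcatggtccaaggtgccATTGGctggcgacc
Lss: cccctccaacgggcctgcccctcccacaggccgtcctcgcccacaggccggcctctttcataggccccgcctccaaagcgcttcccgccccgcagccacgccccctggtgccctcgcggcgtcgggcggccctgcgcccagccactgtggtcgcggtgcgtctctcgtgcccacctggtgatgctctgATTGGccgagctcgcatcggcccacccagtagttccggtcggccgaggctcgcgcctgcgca

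Hmgcs1, a synthase early in the pathway, has CCAAT boxes 237, 176 and 45 bases before its start and TCACCCCAC at 137 bases. It had 107, 132, 96.5 and 83.1 CPM in KI NASH livers and 88.3, 354, 249 and 558 CPM in KI control livers (−1.58 ± 0.36, adjusted p = 0.0168), with control liver 1 inside the NASH range. Idi1, the isopentenyl diphosphate isomerase, has CCAAT boxes at 45 and 14 bases. It had 3.85, 2.03, 3.01 and 6.02 CPM in KI NASH livers and 2.73, 18.8, 18.3 and 45.3 CPM in KI control livers (−2.52 ± 0.55, adjusted p = 0.0139). Lss, lanosterol synthase, has 1 box at 62 bases and averaged 29.2 ± 9.49 CPM in KI NASH and 133 ± 84.2 CPM in KI control livers (SD, n = 4 each; −2.19 ± 0.44, adjusted p = 0.0103).

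Of the 25 cholesterol genes listed 17 had a promoter entry, and all 17 held CCAAT on either strand, against 37.5% of 27025 promoters of the same length. The element TCACNCCAC, searched on both strands with no overlap between the motifs, was in 1 of the 17, Hmgcs1, and in 1.22% of all promoters. CCAAT was in 12 of 17 fatty acid synthesis genes and in 10 of 19 fasting and glucocorticoid genes. A match to these letters is no evidence of binding.

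Fatty acid synthesis genes were also lower in KI NASH livers. Of 21 tested, 11 fell and none rose, with a median of −1.49 on the log2 scale. Thrsp, the lipogenic protein Spot14, had 524, 409, 189.9 and 149 CPM in KI NASH livers and 827, 1845, 1674 and 1962 CPM in KI control livers, with no overlap (−2.31 ± 0.37, adjusted p = 0.00518). Scd1, the stearoyl-CoA desaturase (chromosome 19, 44394455 to 44407879, minus strand), was abundant, with 20480, 12220, 11890 and 9314 CPM in KI NASH livers and 29610, 32180, 27670 and 68740 CPM in KI control livers. All NASH values were below all control values, and control liver 4 stood far above the others (−1.55 ± 0.34, adjusted p = 0.0139). Pnpla3, a lipid droplet acylhydrolase that SREBP1c induces, separated the groups as well, but only narrowly, with 16.5 CPM as the highest NASH value and 18.5 CPM in control liver 1.

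The acetyl-CoA carboxylases followed the pattern of the sterol genes. Acaca had 149, 106, 97.0 and 139 CPM in KI NASH livers and 133, 434, 379.9 and 843 CPM in KI control livers (−1.86 ± 0.39, adjusted p = 0.0126). Acacb averaged 132 ± 39.2 CPM in KI NASH and 580.4 ± 312 CPM in KI control livers (SD, n = 4 each; −2.14 ± 0.47, adjusted p = 0.0139). Among the 11 genes that fell, control liver 1 was the lowest control in 10, and the other 3 controls were above every NASH liver in all 11. Without KI NASH livers 1 and 2, only Thrsp of this list passed, with a list median of −1.68. The number was 6 without KI control liver 4 or KI NASH liver 2, 5 without KI NASH liver 3 and 7 without KI NASH liver 4.

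**Figure D3:**
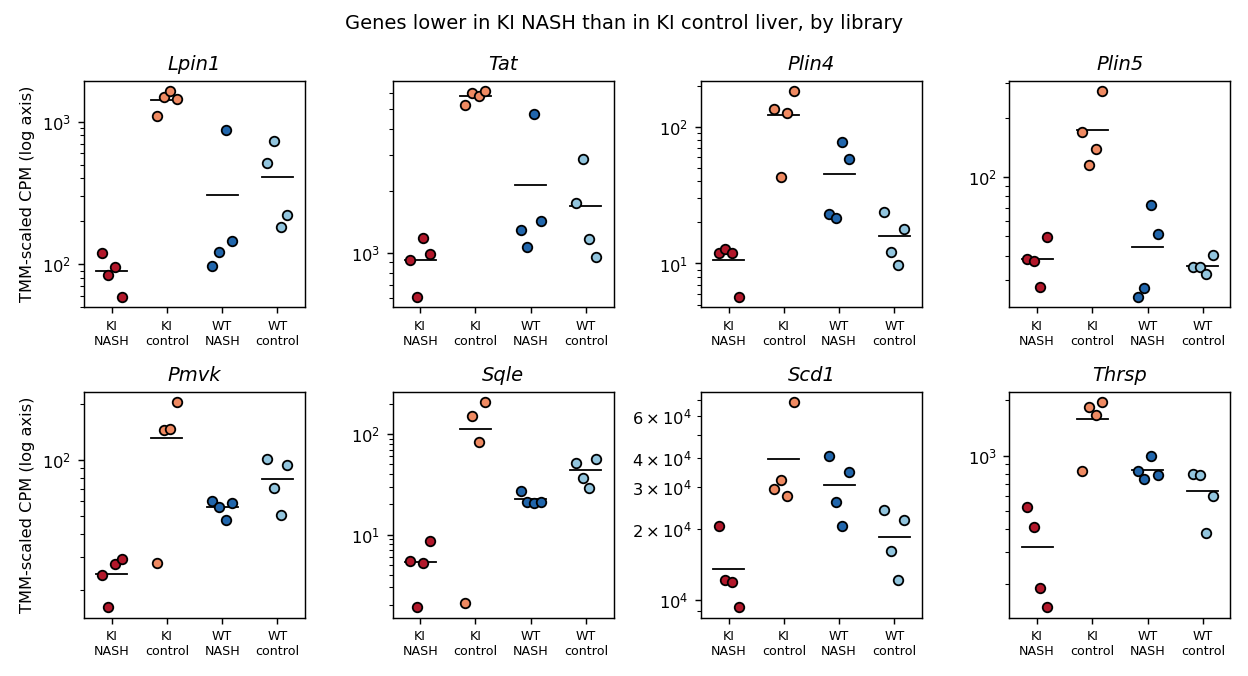
TMM-scaled CPM on a log axis for genes that were lower in KI NASH than in KI control liver; each point is 1 library and each bar the group mean, in the order KI NASH, KI control, WT NASH, WT control. Lpin1, Tat and Scd1 show no overlap between the KI groups, and in Sqle and Pmvk 1 control, at 2.12 and 27.9 CPM, lies far below the other 3.

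Genes of the lipid droplet moved in both directions. Of 16 tested, 4 fell and 2 rose. Plin4, a perilipin of the droplet coat (chromosome 17, 56100591 to 56109803, minus strand), had 12, 12.7, 11.9 and 5.7 CPM in KI NASH livers and 135, 43.3, 126 and 183 CPM in KI control livers (−3.52 ± 0.50, adjusted p = 0.00445). Plin5, which joins droplets to mitochondria, had 38.3, 37.6, 27.9 and 49.8 CPM in KI NASH livers and 168, 115, 138 and 272 CPM in KI control livers (−2.18 ± 0.32, adjusted p = 0.0047). Neither gene overlapped between the groups. The other 2 that fell were Abhd5, the activator of the triglyceride lipase ATGL, and Lpin1. G0s2, the inhibitor of that lipase, rose, with 118 ± 37.1 CPM in KI NASH and 30 ± 13 CPM in KI control livers (SD, n = 4 each; 1.98 ± 0.51, adjusted p = 0.0265). The fatty acid transporter Cd36 rose as well, with 226, 172, 181 and 265 CPM in KI NASH livers and 155, 55.5, 48.8 and 118 CPM in KI control livers (1.16 ± 0.30, adjusted p = 0.0288). Of these 6 genes Plin4 alone passed without KI NASH livers 1 and 2, and 3 of the list passed without KI control liver 3, KI control liver 4 or KI NASH liver 4. G0s2 and Cd36 each did not pass in 6 of the 8 single omissions and Abhd5 in 5, while Plin4, Plin5 and Lpin1 passed in all 8.

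Fatty acid oxidation genes were higher where they passed. Of 20 tested, 3 rose and none fell, with a median of 0.31 on the log2 scale, the beta-oxidation enzymes Eci1 and Acadm among them. Eci1 had 119.5, 122, 98.2 and 108 CPM in KI NASH livers and 83.9, 69.9, 49.4 and 77.2 CPM in KI control livers, with no overlap (0.68 ± 0.18, adjusted p = 0.0286), but it and Acadm did not pass in 6 of the 8 single omissions. Among 21 PPARA target genes 3 rose and none fell, with Vnn1, a pantetheinase and sensitive PPARA target, at 119, 182, 178 and 126 CPM in KI NASH livers and 78.2, 47.4, 21.5 and 39.1 CPM in KI control livers (1.70 ± 0.33, adjusted p = 0.00942). Cpt1a, the gate of mitochondrial fatty acid import, had 875 ± 47.4 CPM in KI NASH and 690.3 ± 159 CPM in KI control livers (SD, n = 4 each; 0.34 ± 0.18, adjusted p = 0.239). The counts of these lists depended on scaling: with library totals in place of TMM, 16 oxidation genes and 9 PPARA targets rose.

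Genes of nitrogen handling near the portal vein were lower. Of 11 urea cycle and arginine genes 5 fell and none rose, and of 13 periportal genes 4 fell and none rose, with a median of −0.53 in each list. Among all genes tested 4.63% fell. Cps1, Asl and Arg1 are in both lists, so the counts are not independent, and Sds is the only periportal gene that adds to them. Cps1, the first enzyme of the urea cycle, had 5404, 3171, 3416 and 3439 CPM in KI NASH livers and 7400, 5997, 6817 and 7221 CPM in KI control livers (−0.83 ± 0.22, adjusted p = 0.0326). Asl, argininosuccinate lyase, averaged 431 ± 148 CPM in KI NASH and 782 ± 119 CPM in KI control livers (SD, n = 4 each; −0.86 ± 0.21, adjusted p = 0.0237), and liver arginase Arg1 1264 ± 209.5 and 1830 ± 260.2 CPM in the same groups (SD, n = 4 each; −0.53 ± 0.15, adjusted p = 0.0376). The arginine carrier Slc7a2 and the mitochondrial ornithine carrier Slc25a15 fell by 1.00 and 0.95 on the log2 scale. In the 5 genes every KI NASH value was below every KI control value, as in 8.4% of all genes tested and in most genes that passed. Sds, serine dehydratase and the strongest periportal change, had 226, 154, 132 and 146 CPM in KI NASH livers and 583, 546, 409.9 and 646 CPM in KI control livers (−1.73 ± 0.26, adjusted p = 0.0047). Sds alone of these genes passed without KI NASH livers 1 and 2. Of the urea cycle and arginine list none passed without KI control liver 4, KI NASH liver 2 or KI NASH liver 3, 1 without KI control liver 1 or 3, and 2 without KI NASH liver 4.

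Of 14 pericentral genes 2 rose, Lgr5 and Tbx3, and 1 fell, where 4.21% of all genes tested rose and 4.63% fell. The count that fell is near that share, and the list median was 0.09 on the log2 scale. Lgr5, the receptor that amplifies Wnt signals (chromosome 10, 115450311 to 115587780, minus strand), had 6.64, 8.53, 11.1 and 11.1 CPM in KI NASH livers and 2.84, 3.28, 3.18 and 2.80 CPM in KI control livers (1.63 ± 0.25, adjusted p = 0.00504). Rnf43 and Sp5 are in none of the lists. They are named for the size of their fold change among genes with no overlap between the groups. Rnf43, a Wnt-induced ubiquitin ligase that removes Wnt receptors, had 32.1, 74.9, 44.4 and 39.5 CPM in KI NASH livers and 16.6, 7.71, 4.62 and 7.99 CPM in KI control livers (2.38 ± 0.43, adjusted p = 0.00688). Sp5, a Wnt-induced transcription factor, had 2.52 ± 0.485 CPM in KI NASH and 0.377 ± 0.0673 CPM in KI control livers (SD, n = 4 each). Its log2 fold change was 2.71 ± 0.71 (adjusted p = 0.0297). Lgr5 and Tbx3 (1.64 ± 0.46, adjusted p = 0.0395), which were named from the list by p, did not overlap between the groups.

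The pericentral gene that fell was Cyp27a1, a bile acid synthesis enzyme (−1.0 ± 0.21, adjusted p = 0.0121). Axin2 had 14.0 ± 5.75 CPM in KI NASH and 5.27 ± 3.06 CPM in KI control livers (SD, n = 4 each), just short of the threshold (adjusted p = 0.0526). Glutamine synthetase, Glul, had 1162 ± 90.9 CPM in KI NASH and 1275 ± 249.7 CPM in KI control livers (SD, n = 4 each; adjusted p = 0.654), and the P450 Cyp2e1 had 8753 ± 1289 and 6206 ± 3412 CPM in the same groups (SD, n = 4 each; adjusted p = 0.29). Lgr5 passed without KI NASH livers 1 and 2, and Rnf43, Sp5 and Tbx3 did not. Of the 8 omissions of 1 KI library, Sp5 did not pass in 7 and Tbx3 in 6, while Lgr5 and Rnf43 passed in all 8.

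**Figure D4:**
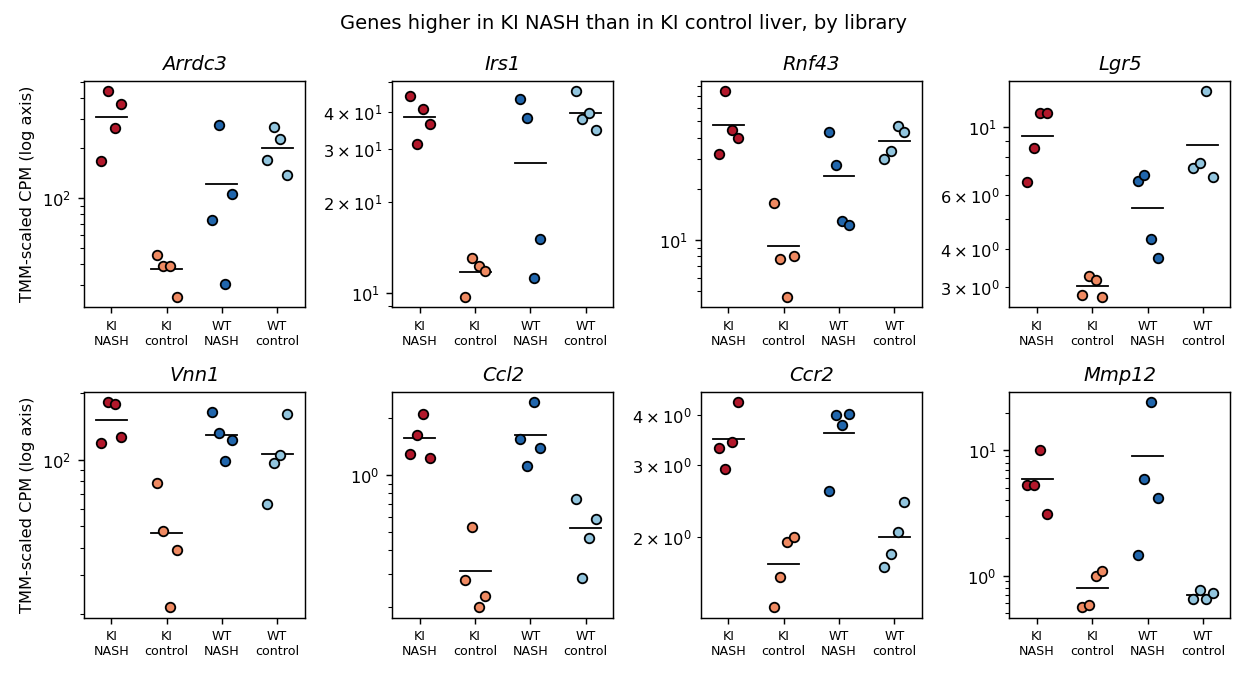
TMM-scaled CPM on a log axis for genes that were higher in KI NASH than in KI control liver; each point is 1 library and each bar the group mean, in the order KI NASH, KI control, WT NASH, WT control. In Lgr5, Rnf43, Arrdc3, Mmp12 and Ccl2 all 4 KI NASH points lie above all 4 KI control points, which for Rnf43 and Arrdc3 was a condition of being named.

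Of 21 NF-kB, cytokine and chemokine genes, 6 rose and 1 fell, with a median of 0.40 on the log2 scale. Ccl2, the chemokine that draws monocytes, was low in both groups, with 1.28, 1.62, 2.10 and 1.24 CPM in KI NASH livers and 0.278, 0.530, 0.199 and 0.228 CPM in KI control livers (2.31 ± 0.38, adjusted p = 0.0055). Its receptor Ccr2 had 3.32, 2.94, 3.42 and 4.30 CPM in KI NASH livers and 1.34, 1.59, 1.94 and 2.00 CPM in KI control livers (1.02 ± 0.21, adjusted p = 0.0103). Neither overlapped between groups.

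The cytokine Il1b had 2.94, 7.99, 16.9 and 5.16 CPM in KI NASH livers and 0.779, 2.07, 2.44 and 1.03 CPM in KI control livers (2.37 ± 0.59, adjusted p = 0.0241). Il1b was named by a rule that asked for no overlap between the groups, and its NASH livers spread widely. It did not pass in 4 of the 8 single omissions. Tnfaip2, a TNF-induced gene, rose by 1.29 ± 0.27 on the log2 scale (adjusted p = 0.0126), and the interferon-induced chemokine Cxcl10 by 1.28 ± 0.38 (adjusted p = 0.0459). Nfkbia, the NF-kB inhibitor that NF-kB itself induces, was the 1 that fell, with 50 ± 3.14 CPM in KI NASH and 86.9 ± 20 CPM in KI control livers (SD, n = 4 each; −0.80 ± 0.24, adjusted p = 0.0482). Nfkbia did not pass in 7 of the 8 single omissions. Without KI NASH livers 1 and 2 none of these 7 passed, with a list median of 0.714, and 4 of the list passed without KI control liver 1, KI control liver 4, KI NASH liver 2 or KI NASH liver 3. With library totals 10 genes of the list rose and none fell.

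Among 10 MHC class II genes 3 rose and none fell, with a median of 0.78 on the log2 scale: the peptide loading subunits H2-DMb1 and H2-DMa and the class II transactivator Ciita. H2-DMb1 had 6.64, 5.60, 7.03 and 7.10 CPM in KI NASH livers and 3.84, 2.41, 4.13 and 3.48 CPM in KI control livers, with no overlap (0.93 ± 0.22, adjusted p = 0.0189). Of 22 interferon response genes the transcription factor Irf1 (1.12 ± 0.26, adjusted p = 0.0164) and the GTPase Irgm1 (0.50 ± 0.15, adjusted p = 0.0471) rose and none fell. The share that rose among all genes tested was 4.21%. Ciita passed in none of the 8 single omissions, and Irgm1 did not pass in 6 of them. Reads of the class II genes may be split between near copies. The number of class II genes that rose was 7 with library totals or DESeq2, 1 without KI control liver 2, KI control liver 3 or KI NASH liver 4, and 0 without KI control liver 4 or KI NASH liver 3.

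Macrophage markers changed gene by gene. Mmp12, the macrophage elastase (chromosome 9, 7344381 to 7369499, plus strand), had 5.25, 5.28, 10.1 and 3.12 CPM in KI NASH livers and 0.557, 0.578, 0.994 and 1.08 CPM in KI control livers, with no overlap (2.89 ± 0.68, adjusted p = 0.0186). It was the 1 lipid-associated macrophage gene of 17 that rose, and it did not pass without KI NASH liver 3. The cathepsin Ctsl (−0.66 ± 0.13, adjusted p = 0.0102) and the fatty acid binding protein Fabp5 (−2.93 ± 0.79, adjusted p = 0.0328) fell, and both are also made by other liver cells. Of 14 Kupffer cell genes, Cd163, the haemoglobin scavenger receptor, fell, with 19.2, 9.66, 5.16 and 16.2 CPM in KI NASH livers and 39.4, 41.2, 39.5 and 40.2 CPM in KI control livers (−1.68 ± 0.32, adjusted p = 0.00839). Glucocorticoids are known to induce Cd163. The folate receptor Folr2 rose (0.49 ± 0.13, adjusted p = 0.0345) but did not pass in 6 of the 8 single omissions, nor did Fabp5 in 5. The 14 Kupffer cell markers summed to 551.2 to 733.5 CPM in KI NASH and 526.6 to 658.8 CPM in KI control livers. For these list counts, the shares among all genes tested were 4.21% higher and 4.63% lower.

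The 17 lipid-associated macrophage markers summed to 1465 to 1821 CPM in KI NASH and 1605 to 2611 CPM in KI control livers, and the 14 recruited monocyte markers to 2842 to 4020 and 3834 to 4853 CPM in the same groups. The monocyte sum is mostly Fn1, fibronectin, which hepatocytes also make, at 2775 to 3900 CPM in KI NASH and 3675 to 4730 CPM in KI control livers. The monocyte markers Ly6c2 and Itgam averaged 1.15 and 4.42 CPM in KI NASH and 1.45 and 5.19 CPM in KI control livers. Neutrophil markers summed to 8.488 to 15.85 CPM in KI NASH and 12.69 to 56.37 CPM in KI control livers, and the neutrophil resistin-like Retnlg fell (−2.69 ± 0.76, adjusted p = 0.0402). In sinusoidal endothelium the hyaluronan receptor Lyve1 (−0.84 ± 0.24, adjusted p = 0.0391) and the scavenger receptor Stab1 (−0.48 ± 0.14, adjusted p = 0.041) fell, 2 of 14. Zbtb46, a transcription factor of dendritic cells, rose (0.73 ± 0.22, adjusted p = 0.0482), 1 of 9. Among all genes tested 4.21% rose and 4.63% fell. Each of Retnlg, Lyve1, Stab1 and Zbtb46 did not pass in 7 of the 8 single omissions. No gene passed among 13 stellate cell, 10 cholangiocyte, 14 T and NK cell and 7 B lineage genes, and no marker of any cell list was at 0 in all 8 libraries. In bulk liver a lower share of a cell type and less RNA per cell cannot be told apart, and the part of cell shares in the results above was not tested.

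Of 31 matrix and fibrosis genes tested, the collagenase Mmp13, low in both groups, rose, with 1.02, 0.497, 0.959 and 0.215 CPM in KI NASH livers and 0.0557, 0.0964, 0.149 and 0.114 CPM in KI control livers (2.62 ± 0.69, adjusted p = 0.03). It did not pass in 7 of the 8 single omissions, nor without both KI NASH livers 1 and 2. The other 30 did not pass, and the list median was −0.02 on the log2 scale. Col1a1, the main fibrillar collagen, averaged 8.62 ± 3.81 CPM in KI NASH and 6.64 ± 4.81 CPM in KI control livers (SD, n = 4 each; 0.38 ± 0.49, adjusted p = 0.662), and Col3a1 differed by 0.42 ± 0.37 (adjusted p = 0.501). The standard error of Col1a1 is larger than its fold change, so these values do not show that collagen levels were alike.

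Osteopontin and the genes of its receptors and of the oncostatin M pathway were read next, because the label names an osteopontin knock-in. Spp1 (chromosome 5, 104435118 to 104441050, plus strand) had 26.1, 30.2, 52.9 and 26.5 CPM in KI NASH livers and 26.3, 19.0, 23.3 and 46.6 CPM in KI control livers. The groups overlapped, with 1 high library in each (0.24 ± 0.28, adjusted p = 0.63). In WT livers Spp1 had 49.3 to 95.5 CPM on NASH and 23.4 to 31.2 CPM on control diet, and the difference between the KI and WT diet effects was −1.31 (adjusted p = 0.071). Whole liver counts do not separate Spp1 of myeloid cells from that of other cells.

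Of the 21 genes of this list 2 fell and none rose: Itgb3, the integrin subunit of an osteopontin receptor, and Il6ra, the interleukin 6 receptor. Il6ra had 61.8, 48.0, 42.5 and 38.7 CPM in KI NASH livers and 266, 112, 135 and 170.1 CPM in KI control livers (−1.84 ± 0.40, adjusted p = 0.0139), and Itgb3 had 7.50, 6.77, 7.12 and 5.92 CPM in KI NASH livers and 25.7, 15.5, 14.5 and 17.6 CPM in KI control livers (−1.42 ± 0.33, adjusted p = 0.0179). Neither overlapped. The osteopontin receptor Cd44 (0.59 ± 0.27, adjusted p = 0.178), the oncostatin M receptor Osmr (−0.43 ± 0.22, adjusted p = 0.227), Stat3 (−0.64 ± 0.26, adjusted p = 0.127), its feedback inhibitor Socs3 (−0.66 ± 0.90, adjusted p = 0.679) and the second arginase Arg2 (−0.85 ± 0.51, adjusted p = 0.308) did not pass. Among 22 acute phase genes, which interleukin 6 and STAT3 drive, the interleukin 1 receptor Il1r1 fell, with 34.5 ± 7.17 CPM in KI NASH and 164 ± 111 CPM in KI control livers (SD, n = 4 each; −2.25 ± 0.55, adjusted p = 0.0219). It did not pass in 4 of the 8 single omissions. The count of 1 in 22 is near the 4.63% of all genes tested that fell.

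Cdkn1a, the cell cycle inhibitor p21, had 3.53, 21.9, 10.6 and 6.56 CPM in KI NASH livers and 224, 61.0, 167 and 196 CPM in KI control livers, with no overlap (−3.92 ± 0.93, adjusted p = 0.0194), and it was the 1 of 15 p53 targets that passed. Rrm2, a ribonucleotide reductase subunit of dividing cells, had 3.75, 3.75, 3.38 and 4.84 CPM in KI NASH livers and 15.0, 17.5, 29.0 and 43.3 CPM in KI control livers (−2.74 ± 0.57, adjusted p = 0.0125), the 1 of 23 cell cycle genes that passed in a list with a median of −1.13. Over all genes tested 4.63% fell, so the count of 1 in 23 is near that share. Of 16 clock genes 3 fell and 1 rose: Ciart, a repressor of the clock, fell (−2.25 ± 0.41, adjusted p = 0.00688), as did Per1 and Cry2, and the haem receptor Nr1d1 rose, with 68.2, 100.2, 121 and 164 CPM in KI NASH livers and 30.4, 36.2, 14 and 18 CPM in KI control livers (2.20 ± 0.60, adjusted p = 0.036). Nr1d1 and Cry2 each did not pass in 6 of the 8 single omissions. The labels give no hour of sampling, and its part in these values was not tested.

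Of 17 iron genes the transferrin receptor Tfrc (−1.84 ± 0.49, adjusted p = 0.032) and the metal carrier Slc39a14 (−1.22 ± 0.34, adjusted p = 0.0392) fell. Of 20 unfolded protein response genes the endoplasmic reticulum protein Herpud1 fell (−1.16 ± 0.35, adjusted p = 0.0486). This count, like those of the 23 lysosomal genes below, is near the share of all genes tested, 4.21% higher and 4.63% lower. Of 22 bile acid and sterol transport genes the phospholipid exporter Abcb4 rose (0.52 ± 0.14, adjusted p = 0.034), and Cyp27a1, the oxysterol hydroxylase Cyp39a1 and the uptake carrier Slco1a4 fell. Of 26 xenobiotic P450 and related genes Cyp3a59 rose, and Cyp2b10, the classical target of the receptor CAR, and the oestrogen sulphotransferase Sult1e1 fell. Cyp2b10 had 3.85, 0.406, 0.685 and 0.376 CPM in KI NASH livers and 37.2, 5.35, 15.0 and 29.7 CPM in KI control livers (−4.06 ± 0.77, adjusted p = 0.0079). Of 23 lysosomal genes the regulator Tfeb rose and Ctsl fell. Of the 8 single omissions of a KI library, Herpud1 passed in none, Slc39a14 did not pass in 7, Abcb4, Cyp39a1, Slco1a4 and Cyp3a59 did not in 6 each, and Tfrc and Sult1e1 did not in 5 each. No gene passed among 18 NRF2 and glutathione, 24 sex-biased, 28 oxidative phosphorylation, 16 immediate early and 19 lipoprotein genes.

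The genes named here have the largest fold changes among those that passed, did not overlap between the groups and averaged at least 1 CPM in 1 of them. Arrdc3, an arrestin that restrains adrenergic and insulin receptors (chromosome 13, 80883384 to 80896042, plus strand), led the higher genes, with 168, 439.8, 264 and 367 CPM in KI NASH livers and 45.7, 39.1, 39.0 and 25.4 CPM in KI control livers (3.05 ± 0.51, adjusted p = 0.00564). WT control livers had 137 to 269.6 CPM of Arrdc3, near KI NASH. The YAP target Cyr61, the semaphorin Sema5b, Mmp12, Sp5, Rnf43, Il1b, the RNase Pnldc1, Ccl2, the hedgehog co-receptor Gas1, the Toll-like receptor Tlr12 and the protocadherin Pcdh18 followed, at 2.24 to 2.95 on the log2 scale. Tlr12, at 11.4, 12.4, 14.3 and 15.3 CPM in KI NASH livers and 2.95, 3.37, 2.29 and 2.51 CPM in KI control livers, had little spread in either group (2.26 ± 0.34, adjusted p = 0.0047).

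On the lower side Fam107a, an actin-binding protein that glucocorticoids induce, had 0.107, 0.0452, 0.274 and 0 CPM in KI NASH livers and 36.0, 3.76, 12.5 and 24.0 CPM in KI control livers (−7.36 ± 1.33, adjusted p = 0.00688). Ddit4, a stress and glucocorticoid-induced inhibitor of mTORC1, had 2.94, 4.97, 3.38 and 3.87 CPM in KI NASH livers and 47.3, 87.7, 185 and 105 CPM in KI control livers (−4.81 ± 0.90, adjusted p = 0.00736). No overlap between the groups was a condition for naming these genes. The ciliary gene Tekt4 had 0, 0, 0.0457 and 0.0538 CPM in KI NASH livers and 0.337 to 2.51 CPM in KI control livers, too few counts for a fold change. Plekhd1, Phf11c, the trehalase Treh, the adenylate cyclase Adcy1, Tmem100, Cyp2b10, the dexamethasone-induced Rasd1, Gadd45g and Lpin1 complete the 12 lower genes. Rasd1 did not pass in any of the 8 single omissions, and Plekhd1 and Tekt4 did not in 6. Phf11c and Cyp2b10 belong to families of near copies, among which reads may be split.

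Whether the diet effect in KI livers differed from that in WT livers was tested as an interaction. Of 13315 genes 635 passed (4.77%), 280 with a more positive (2.1%) and 355 with a more negative (2.67%) effect in KI. Plin4 was among the clearest, with −3.52 in KI and 1.51 in WT livers on the log2 scale, a difference of −5.03 (adjusted p = 0.00711). The autophagy receptor of the endoplasmic reticulum Retreg1 went the same way (−2.36 in KI, 0.98 in WT, adjusted p = 0.00806), as did the proteasome subunit Psmd14 at a smaller scale (−0.30 in KI, 0.60 in WT, adjusted p = 0.00806). The transcription factor Sox12 (1.08 in KI, −1.21 in WT, adjusted p = 0.00423), the adhesion protein Amigo1 (0.72 in KI, −0.92 in WT, adjusted p = 0.00423) and Dcun1d2, a neddylation factor (0.80 in KI, −0.22 in WT, adjusted p = 0.00806), were more positive in KI.

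By list, the interaction was more negative in KI for 7 of 21 fasting and glucocorticoid genes, 7 of 22 acute phase genes, 5 of 21 fatty acid synthesis genes and 3 of 16 lipid droplet genes. The diet effect on Scd1 differed by −2.27 and that on Thrsp by −2.70 on the log2 scale. WT NASH livers did not form 1 group on these genes: Tat had 1073 to 4728 CPM and Lpin1 97.5 to 868 CPM in WT NASH livers. The number of interaction genes was 1198 without WT NASH liver 1 and 992 without liver 2, 344 without liver 3 and 303 without liver 4. It was 395 without KI control liver 3, 254 without KI control liver 4, 335, 320 and 331 without KI NASH liver 2, 3 or 4, and 295, 320 and 404 without WT control liver 1, 3 or 4. Without both KI NASH livers 1 and 2 it was 25. With library totals 609 differences were more positive and 255 more negative.

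**Figure D5:**
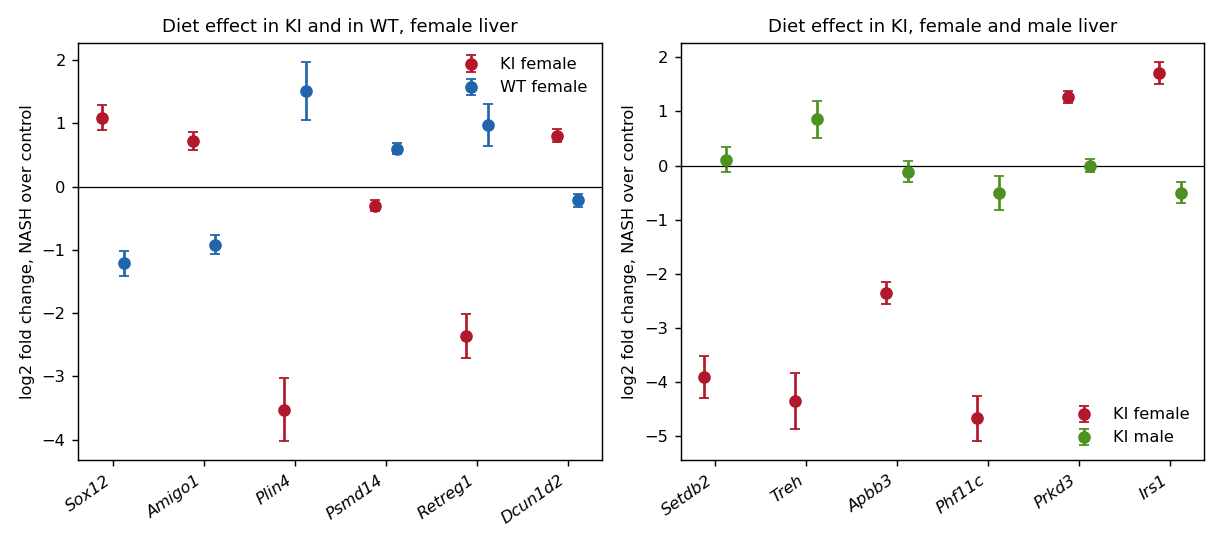
Log2 fold change of NASH over control diet with its standard error, for the 6 genes with the smallest interaction p in KI and WT female livers, and for the 6 genes with the smallest p for the sex difference in female and male KI livers. Plin4 and Retreg1 are negative in KI and positive in WT, and Treh and Irs1 have opposite signs in females and males.

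The same diet comparison in KI male livers, 4 libraries on NASH and 4 on control diet, was set against that in females over 12736 genes of both tables. Of these, 244 passed for the female minus male difference (1.92%), 96 with a more positive effect in females (0.754%) and 148 with a more negative one (1.16%). In the males alone 2 genes passed (0.0157%). Irs1, the insulin receptor substrate, had 45.1, 31.1, 40.7 and 36.4 CPM in female KI NASH livers and 9.69, 13, 12.2 and 11.8 CPM in female KI control livers, while in males it averaged 24.2 CPM on NASH and 34.2 CPM on control diet. The log2 fold changes were 1.71 in females and −0.50 in males, a difference of 2.21 (adjusted p = 0.00192).

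Treh (−4.34 in females, 0.85 in males), the histone methyltransferase Setdb2 (−3.90 in females, 0.11 in males), Phf11c (−4.67 in females, −0.51 in males) and the adaptor Apbb3 (−2.35 in females, −0.11 in males) were more negative in females on the log2 scale, each with an adjusted p of 0.00192. Setdb2 averaged 0.18 CPM on NASH and 2.80 CPM on control diet in female KI livers, against 16.5 and 15.3 CPM in male KI livers. Phf11c averaged 0.18 and 4.76 CPM in females and 2.84 and 4.04 CPM in males. Both genes were low in female NASH livers, which makes the size of their fold changes uncertain. The kinase Prkd3 was more positive in females by 1.27 (adjusted p = 0.00192). Lpin1 averaged 252 CPM in male KI NASH and 506 CPM in male KI control livers. The male groups overlapped, at 184 to 399 CPM on NASH and 217 to 1142 CPM on control diet, and the log2 difference between the sexes was −2.98 (adjusted p = 0.0231). By list, the difference was more negative in females for 5 of 21 fasting and glucocorticoid, 4 of 17 lipid droplet and 2 of 21 fatty acid synthesis genes, and more positive for 2 of 21 NF-kB and chemokine genes. Sex and count table are the same split, so they cannot be told apart. The difference passed for 25 genes without female KI NASH livers 1 and 2. It passed for 394, 154 and 125 genes without female KI control liver 2, 3 or 4, and for 119, 102 and 135 genes without female KI NASH liver 2, 3 or 4. Leaving out male KI control liver 2 or 3 gave 95 and 126 genes, and leaving out male KI NASH liver 1, 2 or 3 gave 136, 147 and 157. With library totals 340 differences were more positive and 105 more negative.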

How the data were processed

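Poly(A) RNA libraries of female whole liver (TruSeq Stranded mRNA kit, RNA from an illustra RNAspin kit, per the labels' protocols) were read from a table of raw counts by gene symbol that the authors deposited, made on mm10 per the submitters' processing notes. How reads were aligned, annotated, counted and assigned to strands is not given in the sources used here. Paralogs (Mt1 and Mt2, Phf11c, Cyp2b10, Cyp3a59, class II genes) and overlapping genes are therefore uncertain. There are 24982 symbols for female and 23839 for male liver, with 23732 in common.

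TMM scaling, filterByExpr (min.count 10, min.total.count 15) and the quasi-likelihood F test came from edgeR 4.0.16 under R 4.3.3, with 1 mean per group over all 16 female liver libraries, Benjamini-Hochberg adjusted over all genes tested, threshold 0.05. The sex comparison used the 16 KI liver libraries. Principal components used log2 CPM with a prior count of 3. Tested on simulated data with 200 changed genes among 13228, the diet fit recovered 61% of 2-fold and 94% of 4-fold changes with 8 false calls. The interaction fit recovered 40% and 76% with 4 false calls, and the sex fit 41% and 79% with 7. The simulation drew each gene independently, with no shift shared by the genes of a library. Its false calls therefore do not speak to shifts of that kind in the real libraries. Gene positions are those of GENCODE on GRCm38.

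The groups compared, the 39 gene lists and the genes named were chosen with earlier results of these data known. Named are 8 genes of the osteopontin question, the 12 higher and 12 lower genes of largest fold change that passed, did not overlap between groups and averaged at least 1 CPM in a group, up to 4 genes per list and direction by p, and 6 genes each for the interaction and the sex difference. Igfbp1, Pck1, G6pc, Hmgcs1, Idi1, Lss and the other list members outside this rule were named after their values were seen. Alternatives were other scalings, filters, DESeq2 1.42.0, a replicate block and left-out libraries. The numbers of the labels do not pair the livers. Some genes that meet the rule are not reported here, though they stay in the counts of their lists.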

Additional observations from a re-analysis of the deposited data

Results flagged for a closer look

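Among 129 named genes, 15 of 258 groups of 4 KI libraries held a library set far from the other 3 of its group by Dixon's criterion, which chance does in about 1 group of 20. In KI NASH these were, in CPM, Spp1 in liver 3 (52.91), Socs3 in liver 4 (63.61), Pcdh18 in liver 3 (3.698), Cyp2b10 in liver 1 (3.855), Cps1 in liver 1 (5404), Plin4 in liver 4 (5.7), Apoc3 in liver 3 (621.1) and Prkd3 in liver 1 (140.2). In KI control they were, in CPM, Sema5b in liver 1 (2.894), Scd1 in liver 4 (68740), Acadm in liver 1 (523.3), Ephx1 in liver 1 (383.3), Cyp3a59 in liver 1 (33.12), Retreg1 in liver 2 (226) and Setdb2 in liver 2 (1.108).

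The diet effect in KI differed from that in WT by edgeR's interaction test for 44 of the 129 genes, against 4.77% of all genes tested. The 2 shares cannot be compared, because 6 genes were named for the smallest p of this test. Most others were named for their diet effect in KI, which is part of the interaction. Log2 differences, KI minus WT, were positive for Arrdc3 (3.78), Rnf43 (3.06), Pnldc1 (2.13), Gas1 (2.77), Tlr12 (1.89), Lgr5 (2.32), Tfeb (1.13), Sox12 (2.3), Amigo1 (1.63), Dcun1d2 (1.02), Prkd3 (1.71) and Irs1 (2.27). They were negative for Osmr (−1.46), Fam107a (−10.08), Tekt4 (−10.42), Ddit4 (−4.41), Phf11c (−5.72), Treh (−6.42), Adcy1 (−8.62), Tmem100 (−4.81), Cyp2b10 (−7.38), Rasd1 (−5.83), Lpin1 (−3.57), Tat (−2.99), Cyp27a1 (−1.12), Sds (−1.55), Lyve1 (−2.21), Thrsp (−2.7), Scd1 (−2.27), Plin4 (−5.03), Plin5 (−2.48), Il1r1 (−3.3), Serpina3n (−2.54), Il6ra (−2.23), Itgb3 (−2.52), Rrm2 (−3.63), Cdkn1a (−7.58), Sult1e1 (−8.03), Fosl2 (−2.02), Ppargc1a (−2.28), Psmd14 (−0.9), Retreg1 (−3.33), Setdb2 (−4.37) and Apbb3 (−2.52). Tekt4 had no counts in WT control livers, so its fitted difference depends on the prior count.

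For 28 of the 129 genes the diet effect in KI differed between females and males by edgeR's test, against 1.92% of all genes tested. These shares cannot be compared, because Setdb2, Treh, Apbb3, Phf11c, Prkd3 and Irs1 were named for the smallest p of this test. Most others were named for their diet effect in female KI livers, which is part of the difference. Log2 differences, female minus male, were positive for Rnf43 (2.38), Il1b (2.92), Gas1 (1.98), Tbx3 (1.9), Tnfaip2 (1.32), Prkd3 (1.27) and Irs1 (2.21). They were negative for Fam107a (−6.67), Phf11c (−4.16), Treh (−5.19), Adcy1 (−4.76), Tmem100 (−4.74), Gadd45g (−4.35), Lpin1 (−2.98), Sds (−1.21), Ctsl (−0.79), S100a9 (−3.06), Scd1 (−2.04), Plin4 (−4.52), Plin5 (−2.17), Il1r1 (−2.25), Il6ra (−1.95), Itgb3 (−1.53), Rrm2 (−1.91), Ciart (−2.84), Slc39a14 (−1.2), Setdb2 (−4.01) and Apbb3 (−2.24).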

How the results depend on the processing

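The number of genes that passed for the KI diet effect, the interaction and the female minus male difference was 1176, 635 and 244. DESeq2 gave 1800, 1253 and 653, library totals without TMM (chosen after seeing the data) gave 2516, 864 and 445, and leaving out KI NASH livers 1 and 2 (chosen after seeing the data) gave 36, 25 and 25. With library totals 85.3% of the KI diet calls were higher instead of 47.6%, 70.5% of the interaction calls were more positive instead of 44.1%, and 76.4% of the sex difference calls instead of 39.3%. With the replicate number as a block the counts were 980, 464 and 150, but numbers did not pair the livers: same-numbered NASH and control deviations correlated at −0.0833 to 0.021. Leaving out 1 library at a time gave 466 to 1143, 254 to 1198 and 95 to 394. The other alternatives (relative log expression, no filter, a minimum count of 50, only the 8 KI libraries) stayed within 1.5 times. Of the 98 named genes past the threshold, 49 passed in each of the 8 single omissions and 12 in all 16 settings. Log2 fold changes that turned sign, none of them past the threshold as reported, were Xist with library totals (0.042), Lyz2 without both low-Lyz2 livers (0.599), and, over single omissions, Lyz2 (−1.31 to 0.033, positive at 0.0292 without KI NASH liver 1 and 0.033 without liver 2), Socs3 (−1.9 to 0.146, positive without KI control liver 1), Spp1 (−0.0558 to 0.561, negative without KI NASH liver 3) and the B cell gene Ms4a1 (−0.221 to 0.742, negative without KI NASH liver 4). The cause of these changes was not tested. With 4 libraries a group, genes of few counts such as Tekt4 have no reliable fold.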
